A study of Mus musculus with 16 samples.

Results

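Etnppl encodes ethanolamine-phosphate phospho-lyase, and the genes described with it encode the enzymes that make, use or remove phosphoethanolamine around it. The 9 genes are Etnppl, Etnk1, Etnk2, Pcyt2, Selenoi, Cept1, Pisd, Pemt and Sgpl1, of the 47593 genes listed for cerebral cortex of 5xFAD mice. Of these, 8 were found by their own symbol and Selenoi was found under its older symbol Ept1, and all 9 were among the 16553 genes with enough counts to be tested. Etnppl was chosen by its measured difference between rapamycin and vehicle libraries, the clearest of any gene by p in the fit with sex and batch, so its treatment values are a description and carry no test. The other 8 genes were taken by their place in the pathway.

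Every mouse was a heterozygous 5xFAD animal on a C57BL/6 by SJL hybrid background, carrying human transgenes with familial Alzheimer mutations, APP among them, under the mouse Thy-1 promoter, which drives the transgenes in neurons. Chow with microencapsulated rapamycin, an inhibitor of the mTOR kinase, or with the carrier alone (vehicle) was given from 2 months of age, and the mice were about 5 months old at the end. RNA from the cortex was sequenced in 16 libraries, with 4 in each of the groups female vehicle (FC), female rapamycin (FR), male vehicle (MC) and male rapamycin (MR). There was no group without the transgenes. The study's text speaks of pooled cortical samples, whereas its figure legends for the sequencing give 4 mice per group. The p-values measure the spread between these libraries, whether or not each is 1 mouse.

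Phosphoethanolamine is the phosphorylated head group from which cells build phosphatidylethanolamine, a major phospholipid of brain membranes. In the CDP-ethanolamine (Kennedy) pathway, ethanolamine kinases make phosphoethanolamine, a CTP-dependent enzyme activates it to CDP-ethanolamine, and a phosphotransferase joins it to diacylglycerol. Phosphatidylethanolamine can also be made in mitochondria from phosphatidylserine, and phosphoethanolamine is released when sphingosine 1-phosphate is cleaved. The phospho-lyase made by Etnppl, which needs pyridoxal phosphate, breaks phosphoethanolamine down to acetaldehyde, ammonia and phosphate, and in the brain its transcript is known mainly from astrocytes.

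Etnppl lies on chromosome 3 at chr3:130617448-130637521 on the plus strand of GRCm38, with 8262 bases of exon. RefSeq gives it 2 start sites, 127 bases apart. The 250 bases before the first of these, chr3:130617198-130617447 of GRCm38.p6 on the plus strand, are shown because this is where transcription of the gene that sets these data apart begins.
Etnppl, upstream of the first start: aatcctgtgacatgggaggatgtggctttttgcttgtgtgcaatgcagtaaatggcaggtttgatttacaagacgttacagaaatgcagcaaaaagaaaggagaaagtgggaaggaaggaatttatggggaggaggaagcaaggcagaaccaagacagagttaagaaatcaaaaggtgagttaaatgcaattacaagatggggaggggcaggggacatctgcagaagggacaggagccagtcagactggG
The capital marks the first base of a GC box (GGGCGG), whose other 5 bases lie past the start. A GC box on either strand was present in both Etnppl windows, each running from 250 bases before a start to just past it. It was in at least 1 window of 7 of the 8 members that have windows, and in 35.7% of the 32851 windows of all genes. The first count is per gene, with 1 to 3 windows each, and the second is per window, so they cannot be compared directly. The E-box CACGTG, found in 7.15% of all windows, and the FOXO site GTAAACA, found in 3.65%, matched no window of these members. The arm AGAACA of the glucocorticoid receptor site was in windows of Cept1 and Pemt and in 6233 of all windows, and it was not in those of Etnppl. These matches describe letters in the windows and not bound sites.

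The libraries held between 16393501 and 20593089 counted read pairs, and levels are given as CPM, a count divided by its library's size after TMM scaling. By the labels, FC4, FR4, FR5, MC4 and MR4 form batch 2 (5 libraries), and the remaining 11 form batch 1. The library labelled male rapamycin 4 had 512 CPM of Xist and 0 Y-linked read pairs. Xist in the 7 remaining male libraries was at most 1.01 CPM. The library labelled male rapamycin 4 is called the library labelled MR4 below. Some of the results it could touch, but not all, are also given without it. Mitochondrial transcripts took between 2.64% and 6.99% of the read pairs. Neuron, astrocyte, oligodendrocyte and microglia markers were all above 0 in every library, as cortex should have them. Choroid plexus markers, which cortex should lack, summed to between 13.9 and 1988 CPM in vehicle and between 25.2 and 193 CPM in rapamycin libraries.

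Etnppl was higher in every rapamycin library than in every vehicle library. Its level was 20.8, 20.5, 17.8 and 12.5 CPM in FC1 to FC4 and 58.7, 80.2, 48.5 and 34.8 CPM in FR1, FR2, FR4 and FR5. In males it was 24.1, 26.6, 28.8 and 18.7 CPM in MC1 to MC4 and 40.4, 56.3, 45.7 and 38.8 CPM in MR1 to MR4. The lowest rapamycin library, FR5, stood above the highest vehicle library, MC3, although the libraries labelled batch 2 were the lowest of their groups. Such a separation of the 8 rapamycin from the 8 vehicle libraries was found for 0.489% of the genes tested, and among the 9 members for Etnppl alone. The mean was 21.2 ± 5.20 CPM with vehicle and 50.4 ± 14.6 CPM with rapamycin (SD, n = 8 each).

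**Figure D1:**
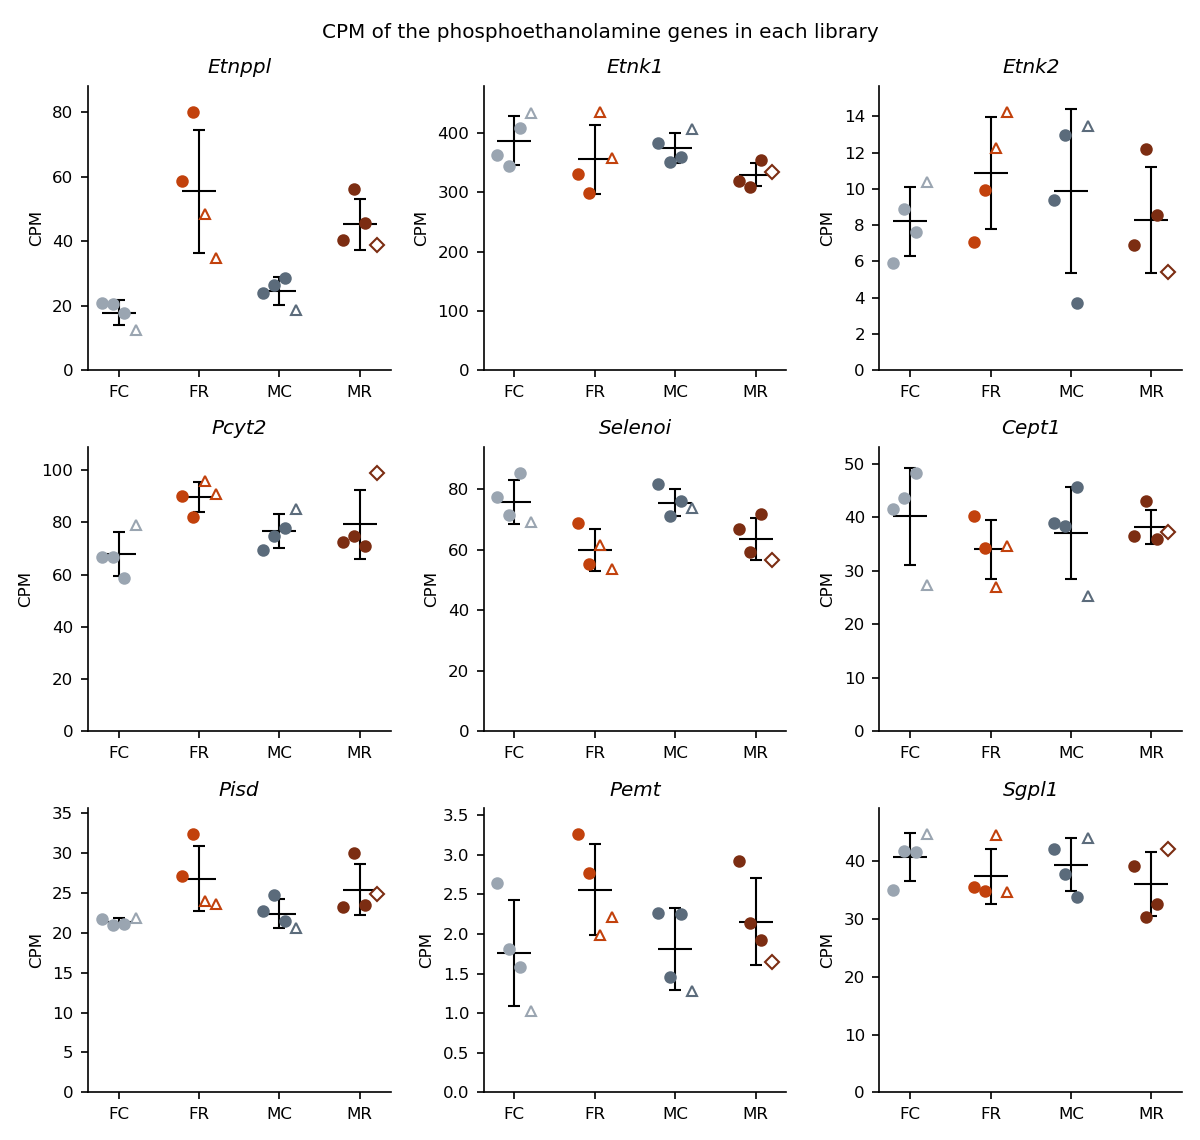
Level of each of the 9 genes in the 16 libraries, in CPM on a linear axis from 0, with FC, FR, MC and MR on the horizontal axis. Filled circles are batch 1, open triangles are batch 2, the open diamond is the library labelled MR4, and bars are the mean ± SD of 4 libraries. Only for Etnppl do the FR and MR points all lie above the FC and MC points.

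With sex and batch in the fit, the log2 fold change of Etnppl was 1.32 (SE 0.14), or 2.49-fold, the largest F statistic of all genes by the rule that chose it. The change was 1.75 on the log2 scale in females (SE 0.15, 3.37-fold) and 0.90 in males (SE 0.14, 1.86-fold). The female change exceeded the male change by 0.85 (SE 0.20) on the log2 scale. FC libraries had a mean of 17.9 ± 3.84 CPM and MC libraries 24.6 ± 4.32 CPM, whereas FR libraries had 55.5 ± 19.1 CPM and MR libraries 45.3 ± 7.88 CPM (SD, n = 4 each). The female group was thus the lower of the vehicle groups and the higher of the rapamycin groups in its mean, with FR and MR libraries overlapping. Without the library labelled MR4, the change was 1.78 in females and 0.80 in males.

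Within batches the difference was of similar size. In batch 1, the mean log2 CPM of the 5 rapamycin libraries was 1.26 above that of the 6 vehicle libraries, and levels ran from 40.4 to 80.2 CPM against 17.8 to 28.8 CPM. In batch 2 the 3 rapamycin libraries were 1.39 above the 2 vehicle libraries, at 34.8 to 48.5 CPM against 12.5 to 18.7 CPM. Etnppl differed between batches itself, being lower in batch 2 by a log2 fold change of -0.51 (SE 0.16, edgeR quasi-likelihood test with Benjamini-Hochberg adjusted p = 0.0187). Over both treatments the female against male difference was -0.03 (SE 0.14, adjusted p = 0.986 in edgeR).

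Other measures of the libraries were extreme where Etnppl was highest, but they did not follow it in every library. The 3 libraries with the most Etnppl, FR2, FR1 and MR2, also had the most mitochondrial read pairs, at 6.98%, 6.88% and 6.99%. The same libraries had the lowest exon length slopes, which are below 0 where a library favours genes with short exons, at -0.13, -0.12 and -0.12. Over all libraries this slope had a median of 0.025 with vehicle and -0.024 with rapamycin. FR4, the next highest in Etnppl at 48.5 CPM, had a slope of 0.064 and a mitochondrial share of 4.17%. FC3, at 17.8 CPM of Etnppl, had a mitochondrial share of 5.47%. With the slope as a covariate the log2 fold change of Etnppl was 1.04 (SE 0.20), and with the mitochondrial share as a covariate it was 1.17 (SE 0.21). By p, Etnppl ranked 3 among all genes in each of these fits and 4 in batch 1 alone. In each of the covariate fits 0 of the 16553 genes passed the threshold in edgeR, with 965 and 1318 genes at an unadjusted p under 0.05.

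Astrocyte and oligodendrocyte markers were set beside Etnppl, since in bulk tissue more cells of a type and more RNA per cell cannot be told apart. Of 12 astrocyte markers, Aldoc, Gjb6 and Acsbg1 rose and none fell, with log2 fold changes of 0.40, 0.47 and 0.29 (edgeR adjusted p = 0.0104, 0.0119 and 0.0311), where 13.3% of all genes passed. Of the 9 that did not pass, 5 had values below 0, from -0.42 for Gfap (adjusted p = 0.206 in edgeR) to -0.04 for Sox9. The same 3 passed upward without the library labelled MR4, and Gfap then passed downward, where 9.44% of all genes passed. The summed level of the 12 was 4945 to 7193 CPM with vehicle and 4613 to 7748 CPM with rapamycin. Of 8 oligodendrocyte markers 0 passed in edgeR, with a median log2 fold change of 0.45 in females and -0.08 in males, and their summed level was 3805 to 6159 CPM with vehicle and 3773 to 9819 CPM with rapamycin. With that level as a covariate, an alternative chosen after seeing the data, the change of Etnppl was 1.11 (SE 0.092) in both sexes together, 1.42 in females and 0.92 in males. The female excess was then 0.51 (SE 0.16) instead of 0.85. The median change of the oligodendrocyte markers was 0.51 in females and -0.26 in males without the library labelled MR4.

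Neither of the ethanolamine kinases among the members, Etnk1 and Etnk2, passed the threshold in edgeR. Chkb, a kinase that is not a member, is given further below. Etnk1, the main ethanolamine kinase of these libraries, had 363, 344, 408 and 434 CPM in FC1 to FC4 and 331, 298, 435 and 357 CPM in FR1, FR2, FR4 and FR5. In males it had 383, 351, 359 and 406 CPM in MC1 to MC4 and 319, 309.5, 354 and 334 CPM in MR1 to MR4. The groups overlapped in both sexes, FR4 being the highest library of all. The log2 fold change of Etnk1 was -0.18 (SE 0.069, edgeR adjusted p = 0.0853), and DESeq2 called it at an adjusted p of 0.0361. Etnk2, the second kinase, ranged from 3.69 to 13.5 CPM with vehicle and from 5.41 to 14.2 CPM with rapamycin, with a log2 fold change of 0.05 (95% interval -0.41 to 0.50). Its 8 vehicle libraries spread so widely that a difference of the size seen for Etnk1 was not detectable.

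Pcyt2, whose enzyme makes CDP-ethanolamine and so commits phosphoethanolamine to lipid synthesis, separated the female groups but not the male groups. It had 66.8, 66.6, 58.9 and 79.0 CPM in FC1 to FC4 and 89.9, 82.0, 95.9 and 90.9 CPM in FR1, FR2, FR4 and FR5. In males it had 69.3, 74.7, 77.7 and 85.2 CPM in MC1 to MC4 and 72.3, 74.8, 71.0 and 98.9 CPM in MR1 to MR4. All 4 FR libraries lay above all 4 FC libraries, whereas in males only the library labelled MR4 lay above the vehicle range. The log2 fold change was 0.34 in females (SE 0.090, edgeR adjusted p = 0.0707) and 0.04 in males (SE 0.089, adjusted p = 0.878). In both sexes together it was 0.19 (SE 0.071, adjusted p = 0.0802 in edgeR). The female minus male difference was 0.31 on the log2 scale (95% interval 0.06 to 0.55), which did not pass adjustment over all genes (edgeR adjusted p = 0.999). Without the library labelled MR4 the female change was 0.36 with an edgeR adjusted p of 0.0446, and the male change was -0.03. In that fit 349 of 16861 genes passed in females, against 2 of 16553 with the library kept.

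Selenoi, the selenoprotein phosphotransferase that makes phosphatidylethanolamine from CDP-ethanolamine, fell. It had 77.4, 71.4, 85.3 and 69.1 CPM in FC1 to FC4 and 68.9, 55.2, 61.5 and 53.7 CPM in FR1, FR2, FR4 and FR5. In males it had 81.5, 71.1, 75.9 and 73.6 CPM in MC1 to MC4 and 67.0, 59.2, 71.7 and 56.5 CPM in MR1 to MR4. The female groups did not overlap, by a margin between FC4 and FR1 of under 1 CPM, and in males MR3 lay inside the vehicle range. The log2 fold change in both sexes together was -0.28 (SE 0.070, edgeR adjusted p = 0.0204), with -0.31 in females (SE 0.10, adjusted p = 0.0985) and -0.25 in males (SE 0.10, adjusted p = 0.373). It passed in 15 of the 16 fits that left out 1 library each, and without FR2 the change was -0.24 with an adjusted p of 0.0508. Without the library labelled MR4 it was -0.27 (adjusted p = 0.0340 in edgeR). Selenoi and Etnk1 have the longest exons of the 9 genes, at 13135 and 14151 bases, and with the exon length slope as a covariate their changes were -0.11 (adjusted p = 0.954) and 0.0020 (adjusted p = 0.999 in edgeR).

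Cept1, which makes both phosphatidylethanolamine and phosphatidylcholine in the last step, did not separate the treatments. It ranged from 25.3 to 48.3 CPM with vehicle and from 26.9 to 42.9 CPM with rapamycin, with a log2 fold change of -0.02 (95% interval -0.21 to 0.17). FC4, MC4 and FR4, all of batch 2, were the 3 lowest libraries. Part of Cept1, 24.7% of its exon bases, lies opposite exons of Dennd2d in the GENCODE M21 annotation, and the counting did not use strand, so read pairs there may be missing from its count.

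Pisd, the mitochondrial enzyme that turns phosphatidylserine into phosphatidylethanolamine, rose in both sexes together. It had 21.6, 20.9, 21.1 and 21.9 CPM in FC1 to FC4 and 27.1, 32.4, 24.0 and 23.5 CPM in FR1, FR2, FR4 and FR5. In males it had 22.7, 24.7, 21.4 and 20.6 CPM in MC1 to MC4 and 23.2, 30.0, 23.4 and 24.9 CPM in MR1 to MR4. The female groups did not overlap, the male groups overlapped, and the 3 highest libraries were FR2, MR2 and FR1, the same that were highest for Etnppl and for the mitochondrial share. The log2 fold change was 0.27 (SE 0.080, edgeR adjusted p = 0.0371), and it was 0.35 in females (adjusted p = 0.0927) and 0.18 in males (adjusted p = 0.509). The call was kept in 5 of the 16 fits that left out 1 library each, among which the adjusted p ran from 0.0212 to 0.0956, and it was 0.0573 without the library labelled MR4. With the replicate number as a block in place of batch, the adjusted p was 0.0523. With the slope as a covariate the change was 0.06 (adjusted p = 0.977) and with the mitochondrial share 0.10 (adjusted p = 0.818 in edgeR). Of the exon bases of Pisd, 20.1% are shared with the overlapping gene model Gm20671, so its count is uncertain.

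Pemt, which methylates phosphatidylethanolamine to phosphatidylcholine and is known chiefly from liver, was the lowest member, with between 17 and 64 read pairs per library. It ranged from 1.02 to 2.64 CPM with vehicle and from 1.65 to 3.26 CPM with rapamycin, and the ranges overlapped in both sexes. Its log2 fold change of 0.48 (SE 0.18, edgeR adjusted p = 0.0814) was the largest after Etnppl but did not pass the threshold at this depth. Sgpl1, the lyase that cleaves sphingosine 1-phosphate to phosphoethanolamine and a fatty aldehyde, ranged from 33.7 to 44.7 CPM with vehicle and from 30.4 to 44.4 CPM with rapamycin. Its log2 fold change was -0.15 (95% interval -0.30 to -0.0014, edgeR adjusted p = 0.191). The interval is narrower than the edgeR test would give, and the edgeR p before adjustment was 0.0636.

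**Figure D2:**
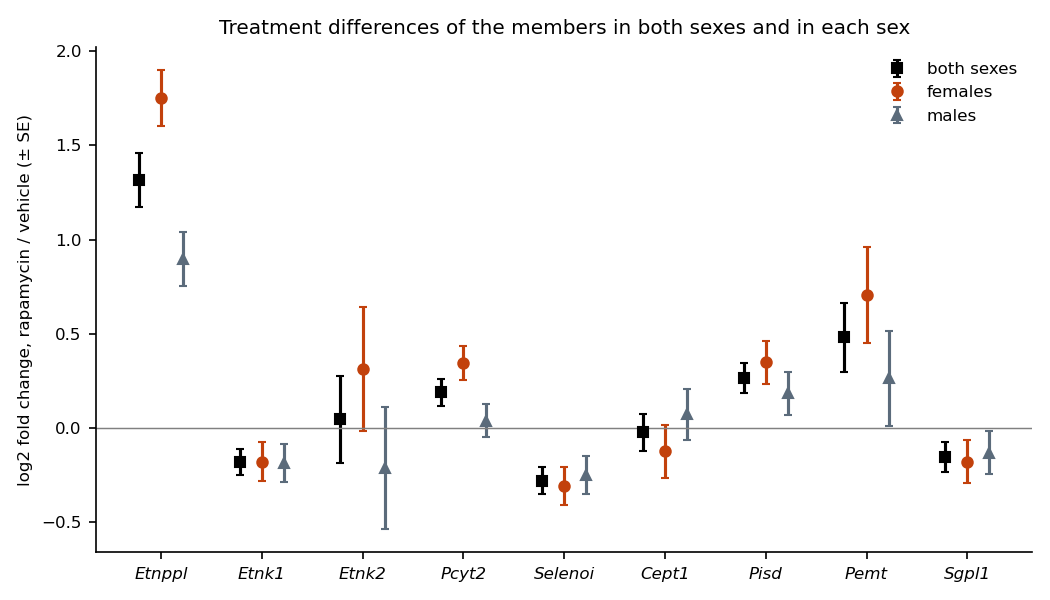
Log2 fold change of rapamycin against vehicle for the 9 genes, in both sexes (squares, 8 libraries against 8), females (circles) and males (triangles, 4 against 4 each), with bars of ± 1 standard error derived from the edgeR F statistic. Etnppl stands at 1.32, 1.75 and 0.90, and the other members lie between -0.31 and 0.71.

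Of the 8 members other than Etnppl, 2 passed in both sexes together, Pisd upward and Selenoi downward, where 13.3% of all genes tested passed (6.46% higher and 6.86% lower). Neither reached 1.5-fold, which 2.26% of all genes reached with a passing p. In females 0 of the 8 passed, where 0.0121% of all genes did in edgeR, 3818 genes (23.1%) were under 0.05 before adjustment, and DESeq2 called 1503 genes, Pcyt2 and Selenoi among them. In males 0 of the 8 passed, where edgeR called 0 genes, DESeq2 called 27, and 1990 genes were under 0.05 before adjustment in edgeR. For the difference between the sexes 0 genes passed in edgeR and 0 in DESeq2, with 360 (2.17%) and 399 genes at an unadjusted p under 0.05. Of the 8, the female groups did not overlap for Pcyt2, Selenoi and Pisd, where this held for 5.78% of all genes, and the male groups overlapped for all 8, where 6.13% of all genes did not.

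Per kilobase of exon, Etnk1 and Pcyt2 had the highest mean levels. The length used is the summed exon length of each gene and not that of the transcripts expressed. The exon length slope also differs between libraries, so the order of the genes is only approximate. With vehicle the mean level was 26.9 ± 2.28 CPM per kb for Etnk1, 16.6 ± 1.94 for Pcyt2 and 12.4 ± 2.67 for Cept1 (SD, n = 8 each). Sgpl1 followed with 6.51 ± 0.665, Selenoi with 5.76 ± 0.424, Pisd with 3.80 ± 0.230, Etnppl with 2.57 ± 0.629, Etnk2 with 1.98 ± 0.729 and Pemt with 0.849 ± 0.264 CPM per kb. Among neighbours in this order, the libraries of Pcyt2 and Cept1, of Sgpl1 and Selenoi, of Etnppl and Etnk2, and of Etnk2 and Pemt overlapped. With rapamycin Etnppl had 6.10 ± 1.77 CPM per kb and came next after Etnk1, Pcyt2 and Cept1, overlapping with both Cept1 and Sgpl1.

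**Figure D3:**
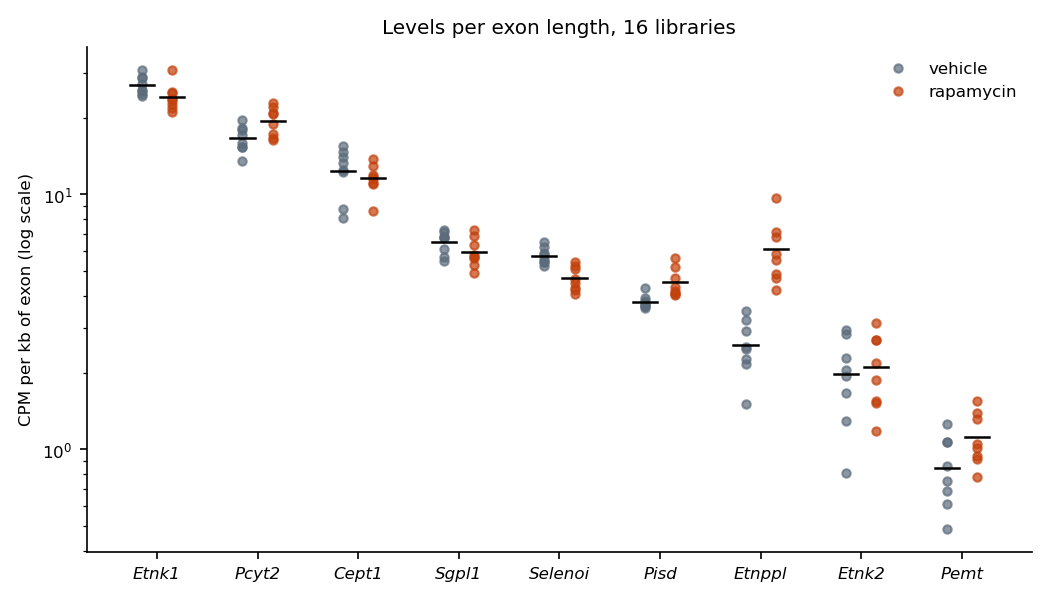
CPM per kb of exon, on a log axis, for the 9 genes in the order of their vehicle means, with 8 vehicle and 8 rapamycin libraries as points and the mean as a line. Etnppl lies below Sgpl1, Selenoi and Pisd with vehicle (2.57) and above them in its mean with rapamycin (6.10), with points that overlap theirs.

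Between batch 2 and batch 1, 5 of the 9 passed the edgeR test, where 35.5% of all genes did and 45.1% had an unadjusted p under 0.05. Pcyt2 was higher in batch 2 by 0.27 (adjusted p = 0.00972) and Etnk1 by 0.20 (adjusted p = 0.0454). Cept1 was lower by a log2 fold change of -0.42 (adjusted p = 0.00636), as were Pemt at -0.59 (adjusted p = 0.0297) and Etnppl at -0.51. When each library was left out in turn, Pcyt2 passed in all 16 fits, Cept1 in all but that without MC4, Etnppl in all but that without FC4, Pemt in 10 and Etnk1 in 5. Between females and males 0 of the 9 passed, where 0.0302% of all genes did, and edgeR gave 992 genes (5.99%) an unadjusted p under 0.05 and DESeq2 called 11 genes. The count was again 0 of the 9 in edgeR without the library labelled MR4, with adjusted p from 0.854 to 0.978. Batch 2 held 3 of the 8 rapamycin and 2 of the 8 vehicle libraries.

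The routes next to phosphoethanolamine were described with 10 lists that together held 60 genes, of which 55 were tested. Of these, 6 passed in both sexes together, which is 10.9% against 13.3% of all genes, and 0 of them reached 1.5-fold. Leaving out the library labelled MR4, 6 again passed, 5 of them the same, with Chka in place of Chkb. The median log2 fold change of the 55 was 0.056, beside 0.015 over all genes. Naaa, the lysosomal amidase that releases ethanolamine from N-acylethanolamines, had 28.2 to 36.8 CPM with vehicle and 38.0 to 53.8 CPM with rapamycin. The treatments did not overlap for Naaa, and it rose by 0.39 on the log2 scale (SE 0.078, edgeR adjusted p = 0.0119), the smallest p of the 6.

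Chkb, the kinase that phosphorylates choline and ethanolamine, rose by 0.32 (SE 0.096, adjusted p = 0.0376 in edgeR), while its relative Chka had 0.28 (SE 0.11, adjusted p = 0.0940). Prelid1, which carries phosphatidic acid to the inner mitochondrial membrane, rose by 0.28 (SE 0.075, edgeR adjusted p = 0.0251). Its list of phosphatidylserine synthesis and lipid transfer had 6 positive values out of 6 genes, from 0.10 for Ptdss1 to 0.28, of which 1 passed. The median over all genes was 0.015, and the share of all genes with a positive value is not given here. Exon lengths of the 6 ran from 1088 bases for Prelid1 to 4875, and the exon length slope had a lower median with rapamycin. Whether exon length has a part in these values was not tested. Plpbp, a pyridoxal phosphate binding protein listed as Prosc, rose by 0.21 (SE 0.067, edgeR adjusted p = 0.0448).

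Far2, which makes fatty alcohol for ether lipids, fell by 0.37 on the log2 scale (SE 0.089, edgeR adjusted p = 0.0176), from 22.7 to 30.6 CPM with vehicle to 16.1 to 22.9 CPM with rapamycin. Asah2, the neutral ceramidase, fell by 0.47 (SE 0.14, edgeR adjusted p = 0.0314). Glul, the glutamine synthetase that takes up ammonia in astrocytes, had 0.25 (SE 0.083, adjusted p = 0.0557), and Aldh2, the main mitochondrial acetaldehyde dehydrogenase, had 0.13 (SE 0.079, adjusted p = 0.292 in edgeR). Phospho1, the phosphatase that acts on phosphoethanolamine, had -0.06 (SE 0.31, edgeR adjusted p = 0.914), with an error too wide to place it. With either the slope or the mitochondrial share as a covariate 0 of the 55 passed in edgeR, and DESeq2 called 13.

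**Figure D4:**
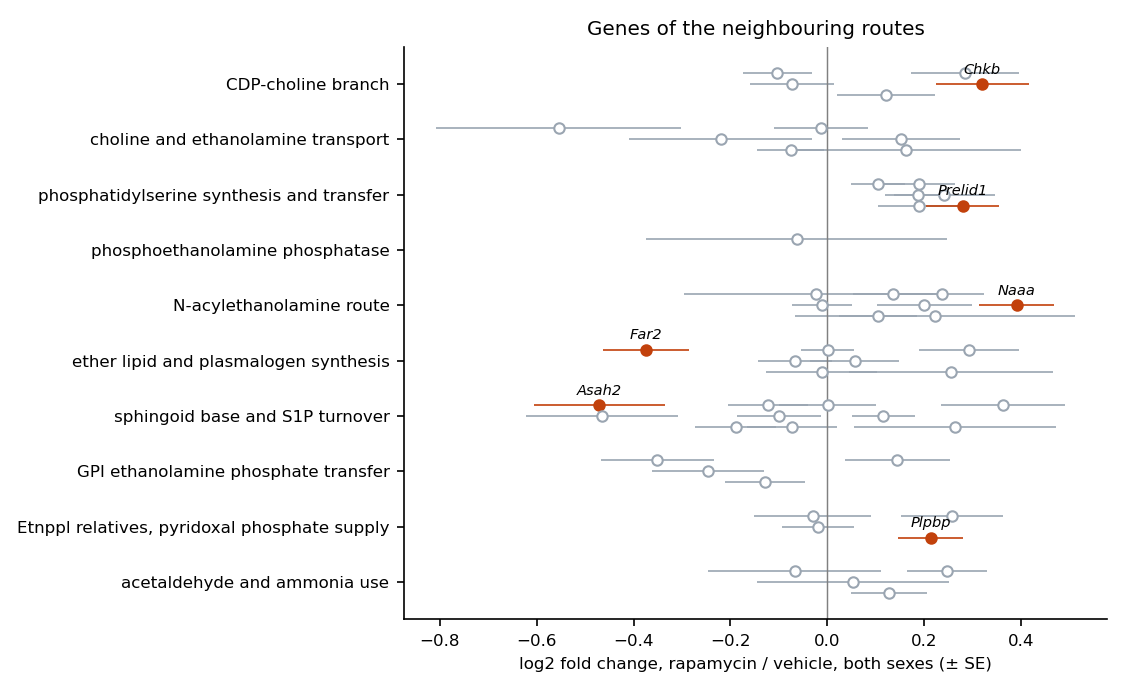
Log2 fold change (horizontal axis, both sexes, bars ± 1 SE) of the 55 tested genes of 10 neighbouring routes (rows). Filled points are the 6 genes with an edgeR adjusted p under 0.05, from -0.47 for Asah2 to 0.39 for Naaa.

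Genes whose pattern was most like that of Etnppl were ranked by Pearson's r over the 16 libraries among 14690 genes with a mean of at least 1 CPM. The libraries differ in mitochondrial share and exon length slope, which were not removed here, so r is a description. With the means of the batches removed, the treatment difference remains in the values, and the 10 highest were Pxmp2 (r = 0.920), Fam107a (0.919), Cyp2d22 (0.908), Llph (0.901), Rchy1 (0.886), Prodh (0.881), Srsf2 (0.880), Exosc3 (0.876), Fam195a (0.876) and Tsc22d4 (0.875). All 10 were higher with rapamycin, with log2 fold changes from 0.29 to 0.88, which the comparison itself favours since they are ranked by likeness to a gene chosen for its rise.

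With the means of the 4 groups and of the batches removed, only the spread between libraries of a group is left. Etnppl residuals ran from -0.33 (FR5) to 0.32 (FR2) with rapamycin and from -0.15 (MC1) to 0.11 (MC3) with vehicle. Whether libraries that differ in their response to rapamycin make part of this spread was not tested. Among the 10 highest were then Spats2 (r = 0.877), Cldn11 (0.874), Mobp (0.858), Jam3 (0.853), Mbp (0.851), Eed (0.843), Armcx1 (0.841), Anln (0.839) and Xaf1 (0.838). Cldn11, Mobp and Mbp encode proteins of the myelin sheath and belong to the oligodendrocyte markers. The 5 lowest were 2810006K23Rik (r = -0.914), 1810041L15Rik (-0.886), Lypd1 (-0.878), Ppp2r2c (-0.858) and Ccnd1 (-0.849). Without the library labelled MR4 the same 10 genes had r between 0.808 and 0.906, and the same 5 between -0.93 and -0.82 (15 libraries).

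On the same scale, the mean of the 8 oligodendrocyte markers had r = 0.840 with Etnppl (rho = 0.759). It was 0.765 without FR5 and MR1, the libraries farthest from the median of Etnppl, and 0.808 without the library labelled MR4. The 12 astrocyte markers had r = -0.22 (rho = -0.11), the 8 neuron markers 0.20, the 8 microglia markers -0.099 and the 7 endothelium markers 0.23. Without FR5 and MR1 these were -0.17, -0.12, 0.10 and 0.40. Without the library labelled MR4 they were -0.27, 0.14, -0.54 and 0.21, so the neuron and microglia values change sign or size with 1 or 2 libraries. Genes known to be induced by glucocorticoids had r = 0.42 (rho = 0.36), with 0.19 without FR5 and MR1 and 0.53 without the library labelled MR4. Between treatments, 7 of these 14 genes rose and 0 fell, with a median log2 fold change of 0.63, where 6.46% of all genes rose. The same 7 passed without the library labelled MR4. Among the other members, Pisd had the highest r at 0.61, followed by Pcyt2 at 0.49, while Selenoi had -0.45 and Etnk1 -0.32. Without FR5 and MR1 these were 0.48, 0.33, -0.69 and -0.57, and without the library labelled MR4 they were 0.58, 0.34, -0.41 and -0.18. The part that cell composition has in the level of Etnppl was not tested beyond the covariate given above.

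**Figure D5:**
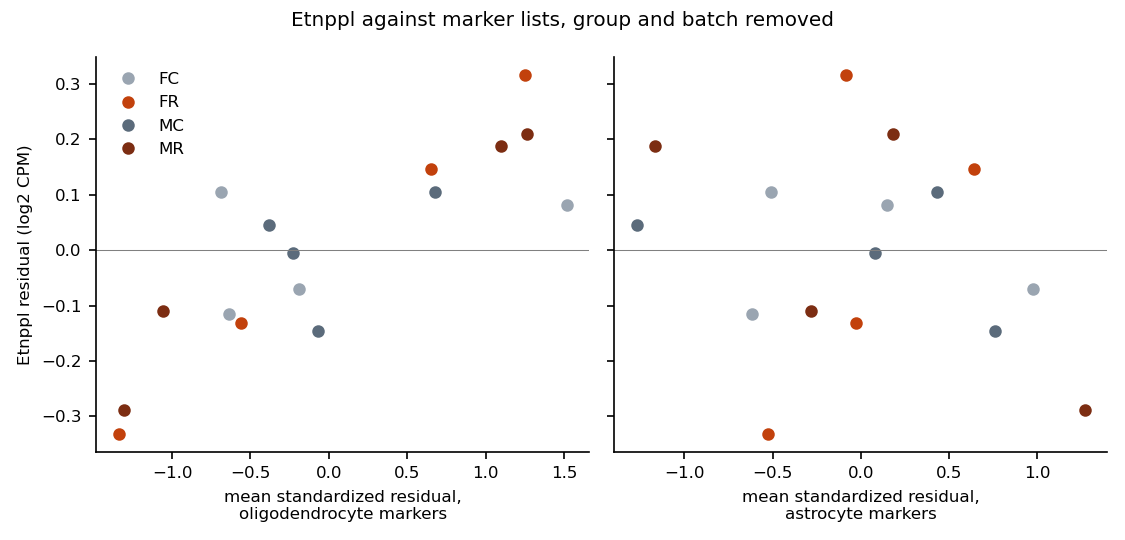
Residual log2 CPM of Etnppl (vertical axis) against the mean standardized residual of the oligodendrocyte (left) and astrocyte markers (right), with group and batch means removed, for 16 libraries coloured by group. The points rise together on the left (r = 0.840) and do not on the right (r = -0.22).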

How the data were processed

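The deposited values are read pair counts per gene that the authors made with FastQC 0.11.9, Trimmomatic 0.39, HISAT2 2.2.1 on GRCm38 (mm10) and featureCounts 2.0.3 without strand, on paired reads of oligo(dT)-enriched RNA, so pairs in overlapping or repeated sequence can be missing. No count was normalized, and the tables per group held the same counts with 0 differing cells. Genes were kept by filterByExpr (minimum count 10), scaled by TMM and tested in edgeR 4.0.16 (R 4.3.3) by quasi-likelihood, with terms for sex, batch and treatment, or, by sex and for the interaction, with the 4 groups plus batch. The threshold was an adjusted p of 0.05 over all genes, and log2 CPM has a prior count of 2. The SE of an edgeR change is the size of its log2 fold change divided by the square root of its F statistic. Intervals are the estimate ± 1.96 SE, which is narrower than the edgeR test itself would give. DESeq2 1.42.0, other normalization, filtering, batch terms and covariates, and leaving out each library were alternatives. The tests were tried on simulated data. Windows and promoter sequence are from RefSeq (GRCm38.p6), overlaps from GENCODE M21. Figures used matplotlib 3.10.9. The members, lists and tests were chosen with earlier results of these data known. Named genes are all members, pathway genes that passed or were needed to explain a count, and the genes most and least like Etnppl, of which some are not reported here. Glul, Aldh2, Phospho1, Chka and Ptdss1 were named after their values were seen.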

Additional observations from a re-analysis of the deposited data

Results flagged for a closer look

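Among the 36 combinations of a member and a group of 4 libraries, 2 held a library far from the other 3 by Dixon's test, where chance gives about 1 in 20. Pcyt2 was 98.9 CPM in the library labelled MR4, against 71.0 to 74.8 CPM in MR1 to MR3. Sgpl1 was 44.4 CPM in FR4, against 34.5 to 35.5 CPM in FR1, FR2 and FR5. Both libraries belong to batch 2, in which Pcyt2 was higher. The batch difference of Sgpl1 was 0.21 on the log2 scale (adjusted p = 0.0565 in edgeR). FR5, also of batch 2, did not stand apart for Sgpl1. The library labelled MR4 also had 512 CPM of Xist and 0 Y-linked read pairs, and Pcyt2 was 82.0 to 95.9 CPM in the FR libraries. Whether batch or the sex of the mouse has a part in its Pcyt2 level was not tested.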

How the results depend on the processing

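The log2 fold change of Etnppl stayed within 1 SD of its spread between libraries in every alternative, from 1.04 with the exon length slope as a covariate to 1.40 without MR1. The count of 2 other members past the threshold in both sexes became 1 without a filter on low counts and 0 without a batch term, in batch 1 alone, and with the exon length slope, the mitochondrial share or the oligodendrocyte marker level as a covariate, and was 0 to 3 when libraries were left out in turn. In females it became 2 by DESeq2 and 1 in batch 1, and 0 to 2 with libraries left out. The count in females was 2 without FR4, where 2104 of 16727 genes passed. It was 1 without the library labelled MR4, where 349 of 16861 genes did. The batch count of 5 became 3 without a filter, 2 with the slope, 0 with the mitochondrial share, and 2 to 6 with libraries left out. The 6 pathway genes became 13 by DESeq2, 1 without a batch term, 0 with the slope or the mitochondrial share, and 2 to 10 with libraries left out. The 2205 genes of all became 142 without a batch term, 1240 in batch 1, 0 with the slope or the mitochondrial share, 806 with the marker level, and 719 (without FR1) to 3352 (without FR4). The genes called in females, 2, became 1678 without a filter, 1503 by DESeq2 and 1290 in batch 1, those in males, 0, became 526 without a filter and 27 by DESeq2, the 5 for sex became 113 and 11, and those for the interaction, 0, became 87 without a filter. With the replicate number as a block in place of batch, 1 member and 1298 genes passed, and Etnk2 had -0.042 instead of 0.05. The deviations of same-numbered libraries had r between -0.16 and 0.67, over 0.1 in 18 of 21 pairs. The libraries numbered 4 are all of batch 2 and had r from 0.35 to 0.67, so number and batch cannot be told apart there. No r of differently numbered libraries is set beside these values, so they cannot decide on pairing. Since the labels give no shared origin, the numbers were not taken to pair the libraries. With the slope, Etnk1 had 0.0020 and Etnk2 -0.12, and with libraries left out Etnk2 ran from -0.066 to 0.17 and Cept1 from -0.085 to 0.024. The cause of these shifts was not tested. Pemt rests on 17 to 64 read pairs a library, and the library labelled MR4 goes against its label.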
